A study of Drosophila melanogaster with 6 samples.

Results

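The genes described here are 34 genes of membrane traffic in the larval fat body of Drosophila melanogaster, out of 11982 genes with a named probe set on the array. They were chosen by name: every gene whose symbol starts with Rab or Syx and a number or X, and a written list of 11 further genes of endocytosis. The choice gave 22 Rab GTPases, 3 regulators of Rab3 and 9 genes of the list, while Nsf2 and mgl of the list, the 10 Syx genes and 11 Rab genes of the gene table had no probe set annotated to them alone and were not analysed here. No syntaxin is therefore among the genes below, and the early endosomal Rab5, the late endosomal Rab7 and the recycling Rab11 are not either.

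RNA was taken from the fat body of 3 delg mutant samples (delg613/Df(3R)ro80b) and 3 control samples (+/Df(3R)ro80b), and each sample was put on 1 array. Delg is an ETS transcription factor, the fly counterpart of the alpha subunit of mammalian NRF-2/GABP, and the study asked whether it is needed for the expression of genes that encode mitochondrial proteins. The delg613 allele carries a premature stop codon, and both genotypes carry 1 copy of the deficiency Df(3R)ro80b, so that the controls have 1 functional copy of delg and share the loss of 1 copy of every other gene in the deleted interval. The extraction note of all 6 samples, the controls included, speaks of mutant larvae, and the groups were therefore taken from the sample titles, which the genotypes given as the source match. By the labels each sample pooled 60 fat bodies, and the larvae were 6 days old in both genotypes. The study calls the array larvae late in the last instar in one place and wandering in another, and the labels give no stage. In its other assays it took mid-third instar larvae at an older age in delg mutants than in normal-fed controls. At equal age, stage and genotype therefore cannot be told apart here, and the part of larval stage in any difference was not tested.

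Rab proteins are small GTPases, and each marks its own membranes of the cell. An exchange factor loads them with GTP, in which state they recruit tethers and motors, and a GTPase-activating protein switches them off. Cargo at the cell surface is packed into clathrin-coated vesicles that dynamin cuts off, ESCRT complexes sort receptors for degradation into the inner vesicles of endosomes, retromer and sorting nexins bring others back, and SNARE proteins fuse the membranes. The larval fat body is known for its secretion of serum proteins and lipoproteins and, at the end of larval life, for the uptake of these serum proteins from the hemolymph into storage granules.

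Signals below are the deposited linear MAS5 signals, in arbitrary units on arrays scaled to the same trimmed mean, and a log2 fold change is mutant over control, given with its standard error (SE) from limma. Signals of different probe sets are not compared with each other. The median signal of an array lay between 55.5 and 75.5, and 3 of the 34 genes (Rab3, Rab23 and Rab26) were below every array's median in all 6 samples. The delg probe set (Ets97D) read 71.7, 87.1 and 91.9 in the mutant samples and 135, 122 and 213 in the control samples, with a log2 fold change of -0.87 (adjusted p = 0.267). Control replicate 2 differed from all 5 others in transcripts that change late in larval life: the fat body receptor gene Fbp1 read 1103 there and 40320 to 65884 elsewhere, and the salivary glue gene Sgs3 read 2.53 there and 53479 to 74489 elsewhere. Of 8 fat body markers none passed the test. Lsp2 and Fbp2 overlapped between the groups, while Col4a1 read 4131 to 5296 in the mutant and 8511 to 36788 in the control (log2 fold change -1.82, adjusted p = 0.0615). Apoltp and fat-spondin had log2 fold changes of -1.05 (adjusted p = 0.193) and -1.01 (adjusted p = 0.113). These 3 markers had every mutant sample below every control sample and were highest in control replicate 2. Without overlap, apolpp was lower too, with 43260 to 51866 in the mutant and 52701 to 58353 in the control. Its log2 fold change was -0.22 (adjusted p = 0.667). Lsd-1 went the other way without overlap, with 32908 to 37463 in the mutant and 26232 to 31719 in the control. Its log2 fold change was 0.33 (adjusted p = 0.448). Of 10 markers of the nervous system 7 were below every array's median in all samples, elav, nSyb, brp and Syn among them, and Csp (1349 to 1848 in the mutant and 1303 to 1623 in the control), nrv2 (254 to 797 in the mutant and 249 to 697 in the control) and cpx were above.

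Of the 34 genes, 1 fell and 1 rose in the delg mutant past an adjusted p of 0.05, against 3.75% of all genes that fell and 4.45% that rose. Rab9 fell, and Hrs, which starts the ESCRT pathway, rose. The other 32 did not pass, and 23 of the 34 log2 fold changes lay within 0.5 of zero (45.5% of all genes did). By the unadjusted p under 0.05, 3 genes were lower and 3 higher in the mutant, with 11.7% and 11.3% of all genes as the background. In 4 genes every mutant sample lay below every control sample and in 6 every mutant sample lay above, where the background was 15.6% and 14.5%. The shares past the threshold and without overlap are near the background.

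The median log2 fold change of the 34 genes was 0.16, with 22 genes above zero and 12 below, while the median of all genes was -0.09 and 54.4% of them lay below zero. Centring each array on its median moved all genes up by 0.14, to 0.06, and the 34 genes to 0.30. Control replicate 2 had the lowest of the 6 signals in 18 of the 34 genes, against 24.5% of all genes. Without it the median of the 34 genes was 0.04 and that of all genes -0.13. The plot of fold changes by role shows this spread around zero with Rab9 and Hrs on opposite sides.

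**Figure D1:**
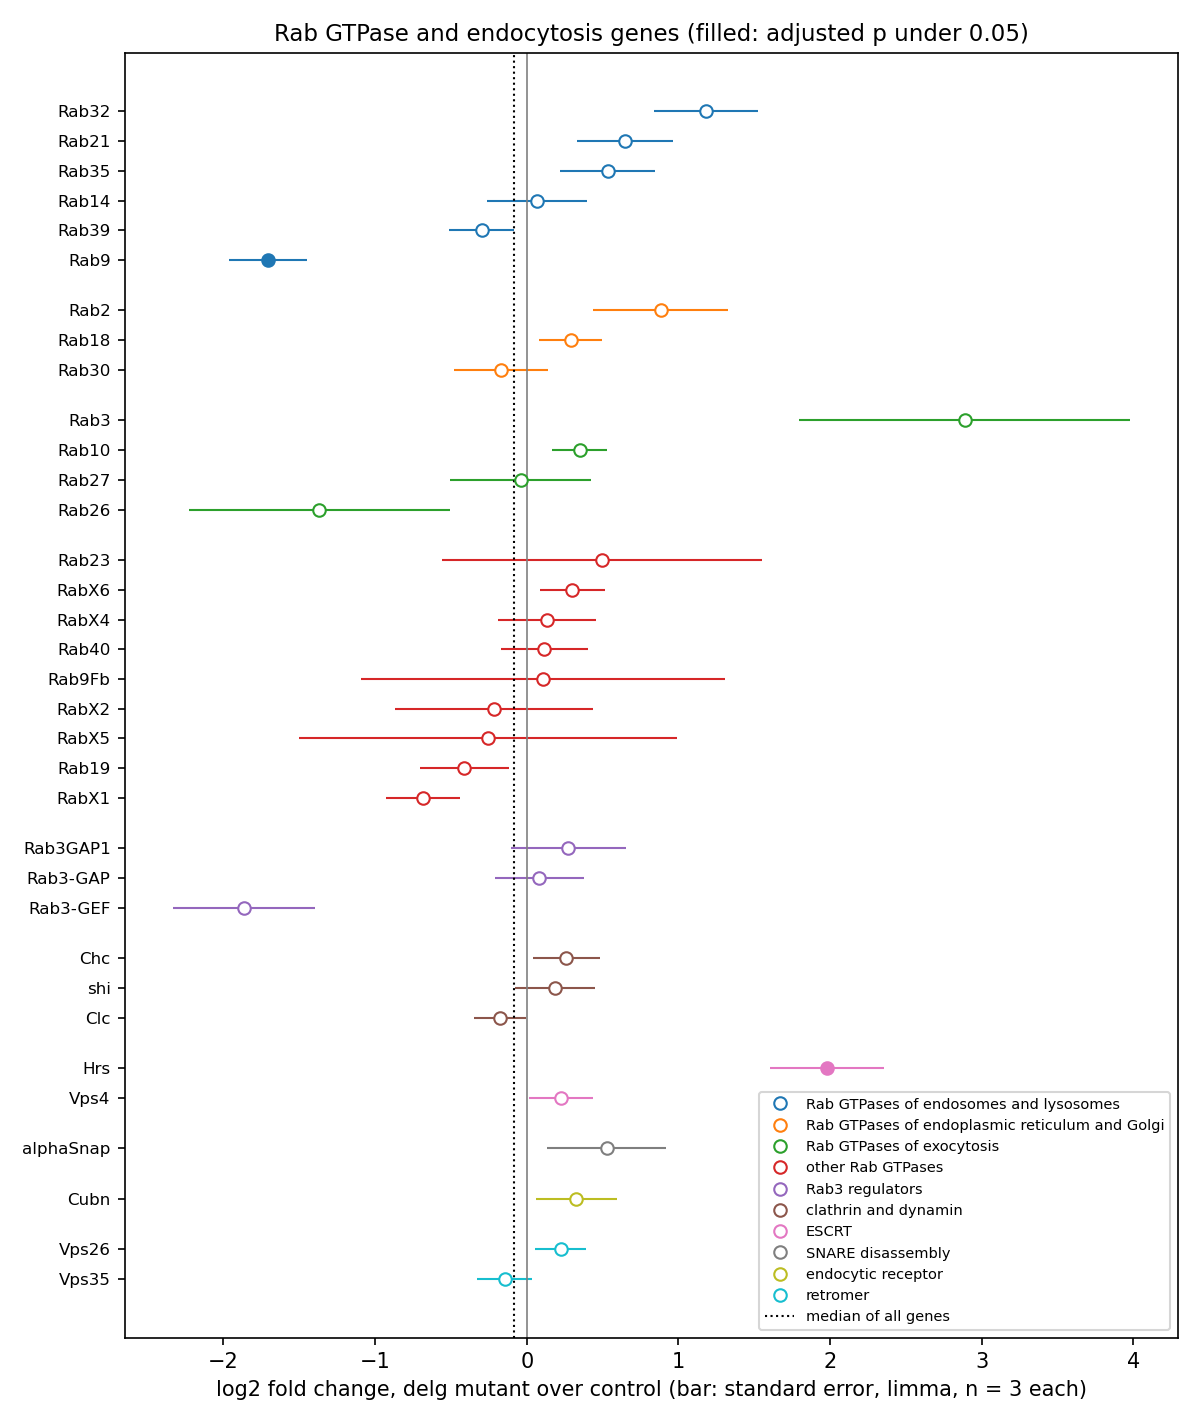
log2 fold change of the delg mutant over the control for the 34 genes, grouped by role, with the standard error as the bar (limma, n = 3 each). Filled points passed an adjusted p of 0.05: Rab9 at -1.70 and Hrs at 1.98, while the dotted line marks the median of all genes at -0.09.

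Markers of other cells moved between the groups as well. Of 8 hemocyte markers, 2 rose, Pxn (log2 fold change 1.47, adjusted p = 0.0438) and eater (log2 fold change 4.79, adjusted p = 0.0340), and in 6 of 8 every mutant sample was above every control sample. Their summed signal was 2450.2 to 4774 in the mutant and 1111 to 3739 in the control, where PPO1 and PPO2 had the higher signals in control replicates 1 and 3. Of 10 salivary gland markers none passed, and their summed signal was 241476 to 304122 in the mutant and 24334 to 397525 in the control, the lowest in control replicate 2. These markers ran both ways. In ng1, ng2 and ng3 every mutant sample was below every control sample (log2 fold changes -2.74, -1.76 and -1.03, adjusted p = 0.0516, 0.143 and 0.132). Control replicate 2 was the highest sample in ng1 (7064) and ng2 (7884). The other 7, the Sgs genes and Eig71Ee, had log2 fold changes above zero with overlap and were lowest in control replicate 2. Of 8 midgut markers alphaTry, betaTry and Mal-A1 were high in mutant replicate 1 alone, and Mal-A6 read 10043, 10355 and 8022 in the mutant samples and 3771, 45.6 and 1055 in the control samples, without overlap (log2 fold change 4.06, adjusted p = 0.125). LManV was high in control replicate 2 alone, with 2293 there and 4.06 to 58.6 in the other samples (log2 fold change -3.25, adjusted p = 0.334). The remaining lambdaTry (log2 fold change -2.01, adjusted p = 0.417), Jon99Ci and Jon65Ai were below every array's median in all samples. Of the lists for the nervous system, nephrocytes, muscle, midgut and imaginal discs 1 gene passed, cpx, which fell. The dim para was lower too without overlap (log2 fold change -2.22, adjusted p = 0.160). All 7 muscle markers had log2 fold changes below zero, and 1 of them, Mlc1, had no overlap (-2.15, adjusted p = 0.0527). All 6 imaginal disc markers were above zero, 2 of them without overlap. These were ap (0.75, adjusted p = 0.170) and ci (0.67, adjusted p = 0.107). The part of these cells in the results was not tested, and in bulk samples fewer cells of a type and less RNA per cell cannot be told apart.

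Rab9, which in mammalian cells serves traffic between late endosomes and the Golgi apparatus, fell. Its signal was 215, 296 and 276 in the mutant samples and 739, 1115 and 734 in the control samples. The highest mutant sample was well below the lowest control sample, and control replicate 2 was the highest of the 6. Rab9 was 3.26-fold lower in the mutant (log2 fold change of -1.70 with an SE of 0.26, adjusted p = 0.00722). The call held when any 1 sample was left out, with adjusted p up to 0.0454. It was lost in limma without trend (adjusted p = 0.0763) and in the methods' equal-variance test after adjustment (adjusted p = 0.0692).

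Rab32, known in the fly for pigment granules, which are related to lysosomes, read 8529, 8673 and 8588 in the mutant samples and 6368, 2208 and 3867 in the control samples. The mutant samples lay close together above a wide spread of controls, of which control replicate 2 was the lowest. The difference did not pass the test (log2 fold change of 1.18 with an SE of 0.34, adjusted p = 0.0885), though it did with array weights (adjusted p = 0.0248) and without control replicate 1 (adjusted p = 0.0161). Without control replicate 2 its log2 fold change was 0.79 (adjusted p = 0.0602).

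Among the other Rab genes of endosomes, Rab21 of early endosomes ranged over 259 to 373 in the mutant and 146 to 255 in the control, without overlap, and had a log2 fold change of 0.65 (adjusted p = 0.321). Rab35, which serves recycling to the cell surface, had 205 to 384 in the mutant and 169 to 215 in the control, with a log2 fold change of 0.53 (adjusted p = 0.420). Rab14, a gene of endosomes and phagosomes, ranged over 1061 to 1573 in the mutant and 740.3 to 1795 in the control and had a log2 fold change of 0.07 (adjusted p = 0.948), which changed sign with quantile normalization (-0.02) and without control replicate 2 (-0.30). The mutant ranges of Rab35 and Rab14 overlapped those of the control, as did that of Rab39, at 673 to 889 in the mutant and 777 to 1099 in the control (log2 fold change -0.30, adjusted p = 0.529). The 6 genes of this role therefore ran both ways, with Rab9 at the lower end and Rab32 at the upper end.

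The Rab genes of the endoplasmic reticulum and the Golgi apparatus did not pass the test. Rab2, which acts between these organelles and also in fusion with lysosomes, read 239, 125 and 279 in the mutant samples and 89.7, 173 and 85.9 in the control samples (log2 fold change of 0.88 with an SE of 0.44, adjusted p = 0.336). Rab18, found on lipid droplets in mammalian cells, had 1285 to 1757 in the mutant and 1022 to 1432 in the control, a log2 fold change of 0.29 (adjusted p = 0.528). Rab30, a Golgi protein in mammalian cells, had 187 to 264 in the mutant and 181 to 321 in the control, a log2 fold change of -0.17 (adjusted p = 0.840). In all 3 genes the groups overlapped.

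Rab10, which directs the secretion of basement membrane in fly epithelia, was the Rab gene of exocytosis with signals well above the array medians. It read 1677, 2019 and 1903 in the mutant samples and 1651, 1329 and 1423 in the control samples. The groups did not overlap, by a small margin between mutant replicate 1 and control replicate 1, but the threshold was not passed (log2 fold change of 0.35 with an SE of 0.18, adjusted p = 0.348). Rab3 and Rab26, which act on synaptic vesicles, were dim. Rab3 read 23.5, 32.2 and 22.1 in the mutant samples and 1.16, 15.9 and 2.24 in the control samples, all below the array medians. Its mutant samples were all above its controls, and its large fold change rests on signals near the bottom of the scale (log2 fold change of 2.89 with an SE of 1.09, adjusted p = 0.184). Rab3 passed without control replicate 2 (log2 fold change 3.99, adjusted p = 0.0409) and with array weights (adjusted p = 0.0403). Rab26 read 5.59, 2.79 and 3.98 in the mutant samples and 23.1, 6.92 and 6.69 in the control samples (log2 fold change of -1.37 with an SE of 0.86, adjusted p = 0.459). All its mutant samples were below its controls, and its other probe set had the opposite sign (0.58). Rab27, a gene of regulated secretion, had 55.5 to 86.3 in the mutant and 54.1 to 96.5 in the control, a log2 fold change of -0.04 (adjusted p = 0.978) whose sign turned with centring (0.10) and with quantile normalization (0.10).

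**Figure D2:**
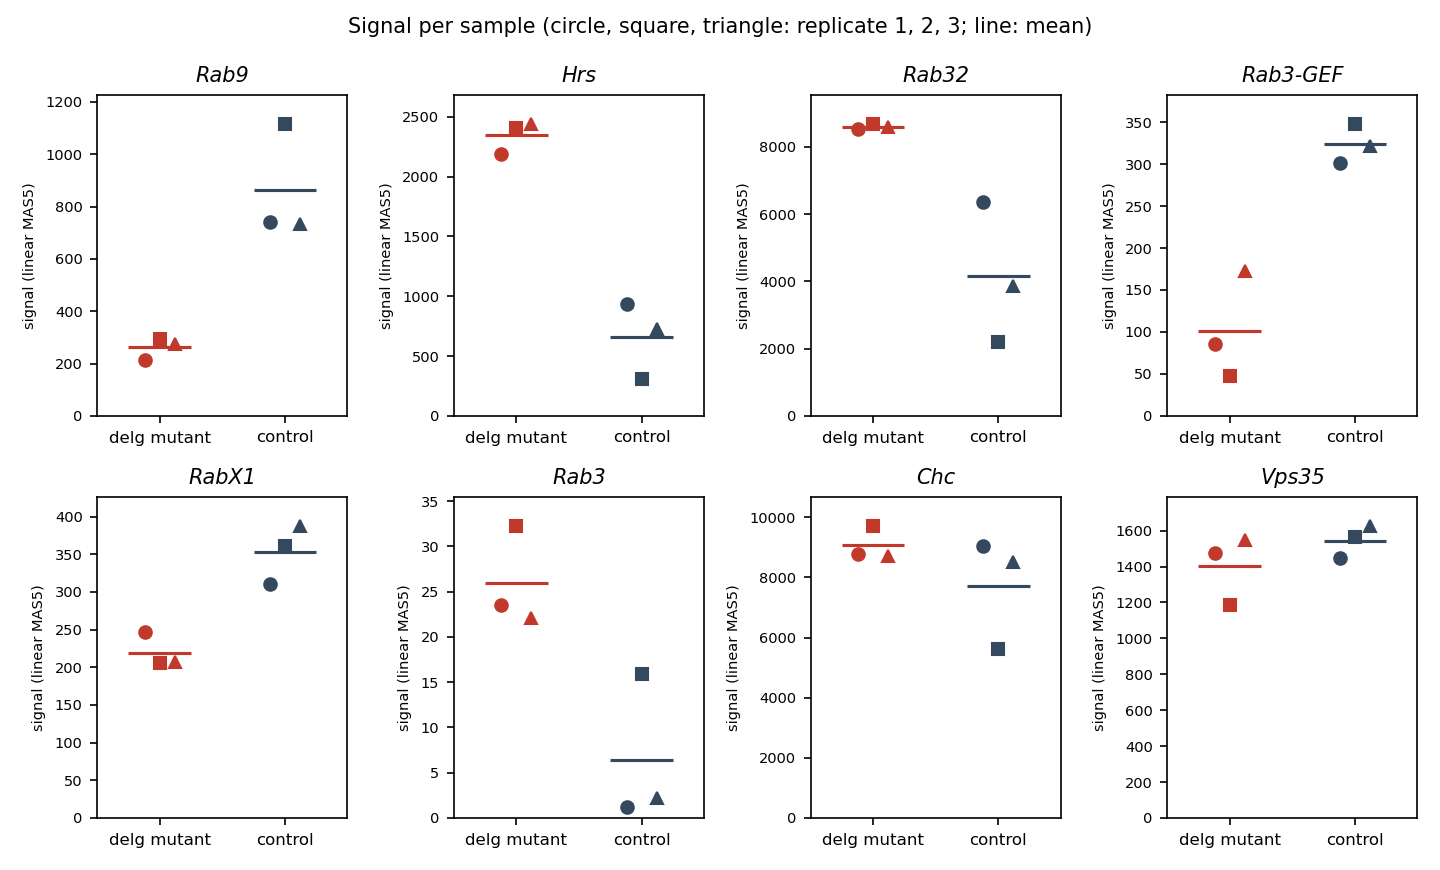
Linear MAS5 signal per sample of 8 of the genes in the delg mutant and the control, where each point is 1 sample (circle, square and triangle for replicates 1, 2 and 3) and the line is the mean of 3. Rab9, Rab3-GEF and RabX1 have every mutant sample below every control sample, Hrs, Rab32 and Rab3 have every mutant sample above, and the groups of Chc and Vps35 overlap.

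RabX1, an endosomal Rab of the fly, read 246, 205 and 207 in the mutant samples and 310.2, 361 and 387 in the control samples. All mutant samples were below all controls, but the threshold was not passed (log2 fold change of -0.68 with an SE of 0.24, adjusted p = 0.160). RabX6 lay on the other side, with 382 to 432 in the mutant and 306 to 355 in the control, again without overlap, and a log2 fold change of 0.30 (adjusted p = 0.527). Rab40, whose protein is part of a ubiquitin ligase, had 190.3 to 222 in the mutant and 166 to 237 in the control (log2 fold change 0.12, adjusted p = 0.888), and Rab19 had 237 to 417 in the mutant and 382 to 559 in the control (log2 fold change -0.41, adjusted p = 0.521). RabX4 ranged over 209 to 246 in the mutant and 138 to 266 in the control (log2 fold change 0.13, adjusted p = 0.886). The groups of these last 3 genes overlapped. Rab23, known for its part in Hedgehog signalling in mammals, and Rab9Fb, RabX2 and RabX5 were dim in 1 or more samples, and their log2 fold changes ran from -0.26 in RabX5 to 0.50 in Rab23 with standard errors of 0.65 to 1.25.

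Rab3-GEF, the exchange factor that loads Rab3 with GTP, read 85.8, 47.2 and 172 in the mutant samples and 301, 348 and 322 in the control samples. The controls lay close together, and all mutant samples were below them with a wide spread. The fitted level was 3.64-fold lower in the mutant, just outside the threshold (log2 fold change of -1.86 with an SE of 0.47, adjusted p = 0.0541). It passed with 100 added before the log (adjusted p = 0.0466), among the brighter probe sets (adjusted p = 0.0399) and without mutant replicate 3 (adjusted p = 0.0427). The subunits of the complex that acts on Rab3 in the opposite sense had small fold changes. The catalytic Rab3GAP1 ranged over 235 to 375 in the mutant and 144 to 333 in the control, with a log2 fold change of 0.27 (adjusted p = 0.776), and the non-catalytic Rab3-GAP over 653 to 1081 in the mutant and 579 to 1020.2 in the control, with 0.08 (adjusted p = 0.924). Without control replicate 2 both had a negative sign (-0.11 and -0.18).

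The genes of the clathrin coat and of dynamin did not pass the test. Chc, the clathrin heavy chain, read 8768, 9707 and 8724 in the mutant samples and 9041, 5607 and 8509.6 in the control samples. Control replicate 2 was the lowest sample and the other 5 overlapped (log2 fold change of 0.26 with an SE of 0.22, adjusted p = 0.607). Clc, the clathrin light chain, read 4802, 4804 and 5166 in the mutant samples and 5679, 4889.6 and 6167 in the control samples, and here too the groups overlapped (log2 fold change of -0.17 with an SE of 0.17, adjusted p = 0.670). The dynamin gene shi read 299.6, 352 and 322 in the mutant samples and 366, 225 and 280.3 in the control samples, with overlap (log2 fold change of 0.19 with an SE of 0.27, adjusted p = 0.785). Its other probe sets gave -0.03 and 0.64, neither past the threshold. The fits put the 3 genes at -0.17 to 0.26 on the log2 scale with standard errors of 0.17 to 0.27.

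Hrs, which binds ubiquitinated receptors on the endosome as part of ESCRT-0, rose. It read 2189.7, 2407 and 2439 in the mutant samples and 937, 309 and 722 in the control samples. The mutant samples lay close together, all above the controls, and control replicate 2 was the lowest. Hrs was 3.94-fold higher in the mutant (log2 fold change of 1.98 with an SE of 0.37, adjusted p = 0.0187), and without control replicate 2 the log2 fold change was 1.51 and the call held (adjusted p = 0.00158). The call was lost without mutant replicate 1, 2 or 3 (adjusted p = 0.0666, 0.0775 and 0.0955), without control replicate 3 (adjusted p = 0.0559), in limma without trend (adjusted p = 0.122) and in the methods' test after adjustment (adjusted p = 0.157). Vps4, the ATPase that takes ESCRT-III apart at the end of the same pathway, read 974, 959.6 and 897 in the mutant samples and 1012, 687 and 754 in the control samples. Its groups overlapped and it did not pass (log2 fold change of 0.23 with an SE of 0.21, adjusted p = 0.641).

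The remaining genes of the list did not pass either. The SNARE adaptor alphaSnap, listed as Snap, which works with NSF to take used SNARE complexes apart, read 498, 451 and 635 in the mutant samples and 566, 195 and 433 in the control samples. The groups overlapped apart from control replicate 2, which was the lowest, and the log2 fold change was 0.53 (adjusted p = 0.543) with all samples and 0.08 without that one. Cubn, the fly gene for the endocytic receptor cubilin that takes up protein in nephrocytes, read 292, 301 and 426 in the mutant samples and 302, 232 and 270.1 in the control samples, with a log2 fold change of 0.33 (adjusted p = 0.584). Of 6 nephrocyte markers none passed. Low signals were those of sns (16.8 to 40.9 in the mutant and 20.8 to 36.3 in the control) and Klf15 (8.38 to 60.2 in the mutant and 10.2 to 27.0 in the control), while pyd (704 to 1103 in the mutant and 409 to 751 in the control), Hand (84.6 to 273 in the mutant and 133 to 231 in the control) and Amnionless (67.8 to 226 in the mutant and 109.5 to 219.6 in the control) were above the median of the same array in every sample, with overlapping groups. The remaining marker, kirre, had 47.0 to 71.3 in the mutant and 4.94 to 24.4 in the control, without overlap (log2 fold change 2.09, adjusted p = 0.198). Of the retromer core, Vps35 read 1478, 1185 and 1546 in the mutant samples and 1446, 1563 and 1625 in the control samples (log2 fold change -0.15, adjusted p = 0.748), and Vps26 read 3576, 3332 and 3618 in the mutant samples and 3366, 2700.1 and 2983 in the control samples (log2 fold change 0.22, adjusted p = 0.552). In both subunits the groups overlapped. The probe sets of Chc, Rab32, Rab30 and Vps35 are of a kind that may match transcripts of more than 1 gene. That of cpx, in the wider list below, is of the same kind. The plot of fold changes with and without control replicate 2 shows how far that sample moved each gene.

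**Figure D3:**
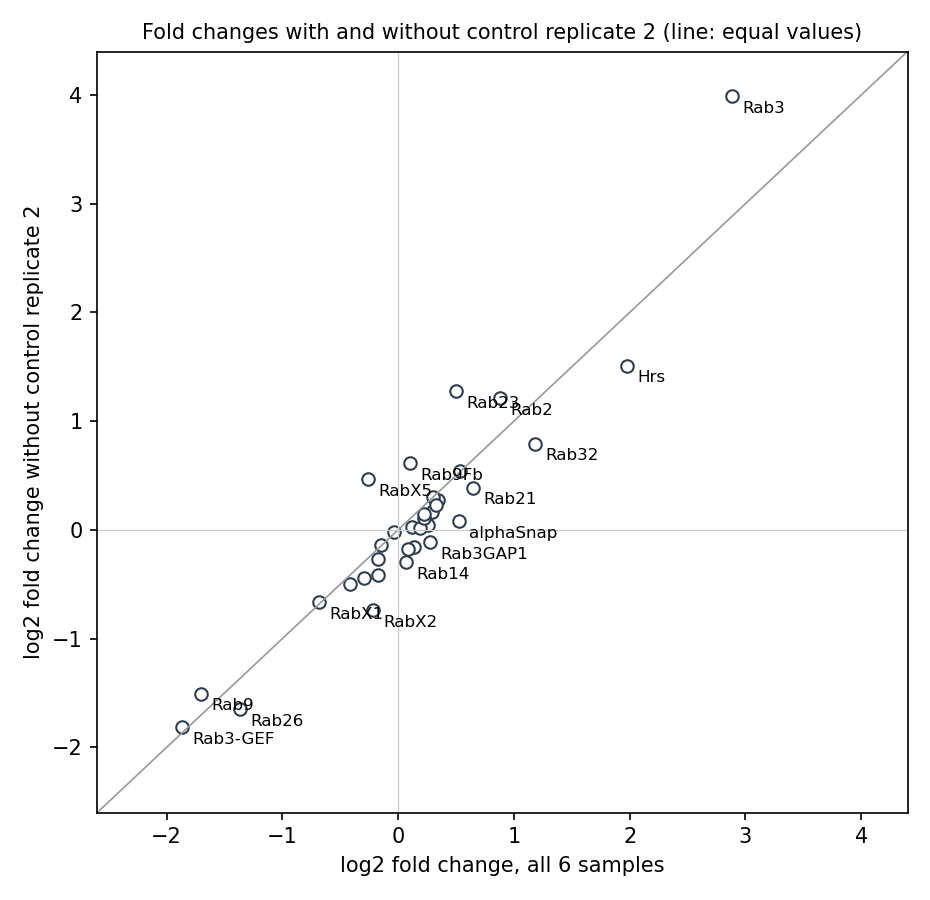
log2 fold change of the delg mutant over the control for the 34 genes with all 6 samples (horizontal axis) and without control replicate 2 (vertical axis), 1 point per gene, where the line marks equal values. Hrs moved to 1.51, Rab32 to 0.79, alphaSnap to 0.08 and Rab3 to 3.99, while Rab9 (-1.50) and Rab3-GEF (-1.81) stayed below zero.

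A wider list of 132 genes of the same pathways, none of them among the 34, was measured beside them. A further 31 entries of the list had no probe set annotated to them alone. The list was written with earlier results of these data known, so its counts beside the background are a description and no test. Of the 132 genes, 13 rose and 2 fell past the threshold, and 117 did not pass, where 4.45% of all genes rose and 3.75% fell. Every mutant sample was above every control sample in 48 of them and below in 10, with a background of 14.5% and 15.6%. Their median log2 fold change was 0.28 against -0.09 for all genes, and 0.16 against -0.13 without control replicate 2, the lowest of the 6 samples in 69 of the 132 genes. Without control replicate 2, 16 rose and 3 fell. The count that rose was 3, 4 and 2 without mutant replicate 1, 2 and 3, 4 without control replicate 3, 2 in limma without trend and 3 in the methods' test after adjustment. The genes that rose lay in the ESCRT, sorting nexin, Rab regulator and SNARE lists.

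In the ESCRT list, 5 of 16 genes rose and none fell, with a median log2 fold change of 0.48. Stam, the partner of Hrs in ESCRT-0, read 2002, 1794 and 2278 in the mutant samples and 896, 482 and 1090.2 in the control samples (log2 fold change of 1.37 with an SE of 0.30, adjusted p = 0.0341). Vps37B of ESCRT-I read 1737, 1577 and 1549 in the mutant samples and 861, 471 and 652 in the control samples (log2 fold change of 1.34 with an SE of 0.24, adjusted p = 0.0164). Both genes had every mutant sample above every control sample, with control replicate 2 the lowest. In ESCRT-III, Vps20, which starts the filament, read 1725, 1468 and 1637 in the mutant samples and 819, 565 and 553 in the control samples (log2 fold change of 1.34 with an SE of 0.22, adjusted p = 0.00958). Vps60 read 4721, 4870.1 and 4018 in the mutant samples and 2604, 1454 and 2192 in the control samples (log2 fold change of 1.16 with an SE of 0.24, adjusted p = 0.0266). The main filament gene shrb, named after its values were seen, had 5736 to 5993 in the mutant and 2139 to 3542 in the control (log2 fold change of 0.98 with an SE of 0.23, adjusted p = 0.0404). No ESCRT-II gene passed, and Vps36, lsn and Vps25 had log2 fold changes of -0.10, -0.16 and 0.28. Each of the 5 calls was lost in 3 or more of the 6 fits that left out 1 sample.

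**Figure D4:**
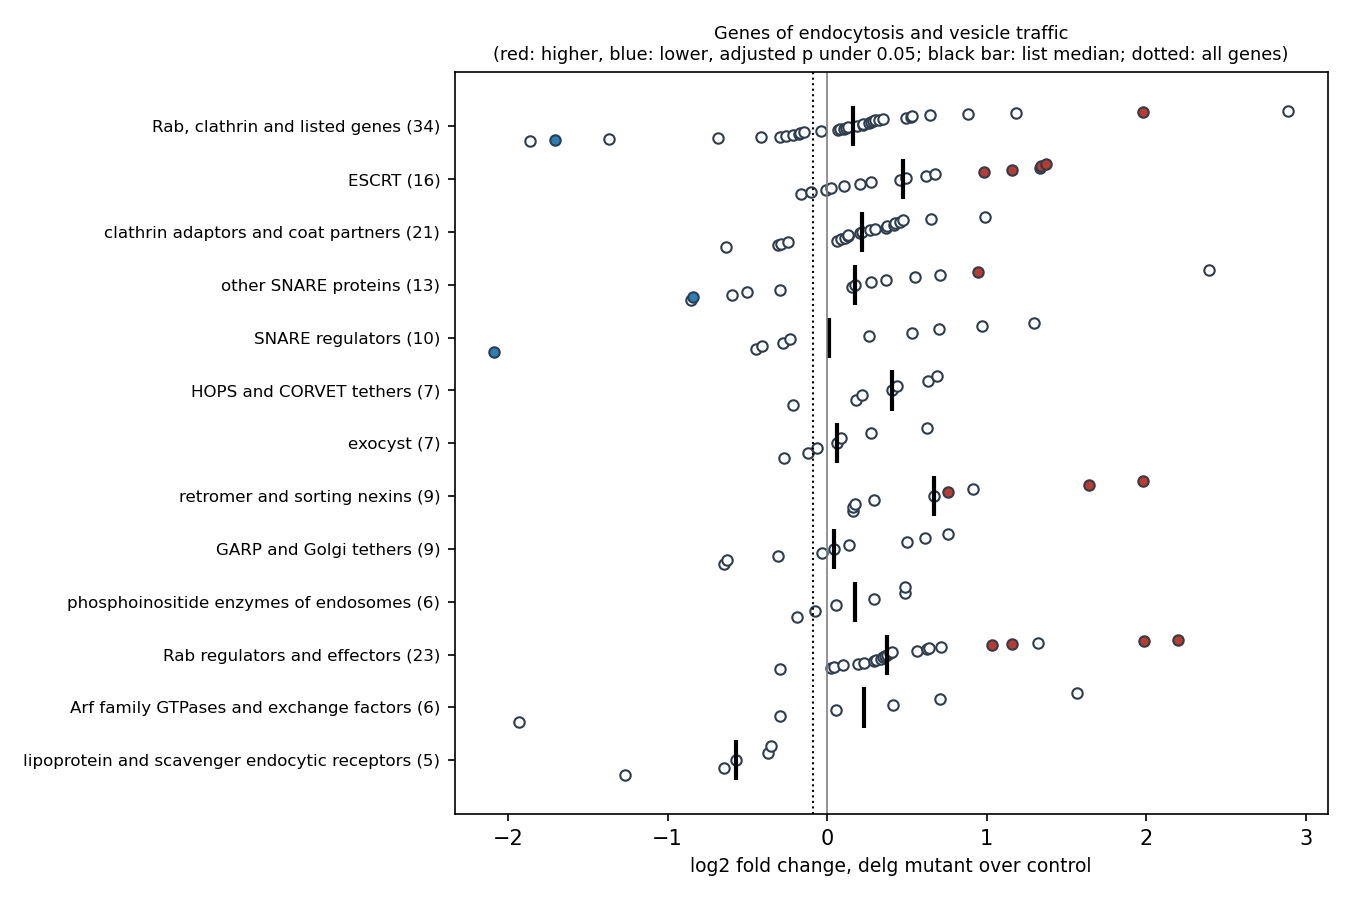
log2 fold change of the delg mutant over the control for the 34 genes and for the 132 genes of the wider list, 1 point per gene and 1 row per list with its number of genes, where red points rose and blue points fell past an adjusted p of 0.05, the black bar is the median of the list and the dotted line the median of all genes. The medians of all rows except the receptor list (-0.57) lie to the right of the median of all genes (-0.09). They are highest in the sorting nexin list (0.67) and the ESCRT list (0.48). Without control replicate 2 these 2 medians were 0.46 and 0.32, against -0.13 for all genes.

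Of 9 genes of the retromer and sorting nexin list 3 rose, all 9 had log2 fold changes above zero, and their median was 0.67. Snx1, a sorting nexin that bends the endosomal membrane, read 7305, 6775 and 7398 in the mutant samples and 3269, 1213 and 3039 in the control samples (log2 fold change of 1.64 with an SE of 0.36, adjusted p = 0.0323). Snx27, which links cargo to retromer in mammalian cells, read 1894, 1972 and 1823 in the mutant samples and 775, 261 and 545 in the control samples (log2 fold change of 1.98 with an SE of 0.36, adjusted p = 0.0165). Snx3, which in the fly returns the Wnt carrier Wntless with retromer, read 5842, 5669.8 and 6280.4 in the mutant samples and 3872, 3279.8 and 3389 in the control samples (log2 fold change of 0.76 with an SE of 0.17, adjusted p = 0.0334). The mutant samples of all 3 were above the controls, while the core subunits Vps35 and Vps26 overlapped. Each of these 3 calls needed every mutant sample and control replicate 3.

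Among the regulators and effectors of Rab proteins, 4 of 23 rose, none fell, and 22 had log2 fold changes above zero, with a median of 0.38. Rabex-5, an exchange factor of Rab5, read 1330.4, 1522 and 1435 in the mutant samples and 458, 306 and 333 in the control samples (log2 fold change of 1.99 with an SE of 0.22, adjusted p = 0.00189). The BEACH protein gene bchs, known for its part in the clearance of protein aggregates, read 509, 444 and 561 in the mutant samples and 113, 91.6 and 126 in the control samples (log2 fold change of 2.20 with an SE of 0.27, adjusted p = 0.00295). Both kept their call when any 1 sample was left out, with adjusted p up to 0.0215 and 0.0367. The Rab11 effector gene nuf read 4972, 4878 and 4873 in the mutant samples and 2405, 2475 and 2306 in the control samples (log2 fold change of 1.04 with an SE of 0.16, adjusted p = 0.00699). Here control replicate 2 did not stand apart, and of the fits that left out 1 sample, the one without mutant replicate 3 lost the call (adjusted p = 0.0557). GAPsec, a predicted Rab GTPase-activating protein, read 1718, 1820.2 and 1613 in the mutant samples and 913, 564 and 879 in the control samples (log2 fold change of 1.16 with an SE of 0.23, adjusted p = 0.0220), a call that needed every mutant sample and control replicate 3.

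**Figure D5:**
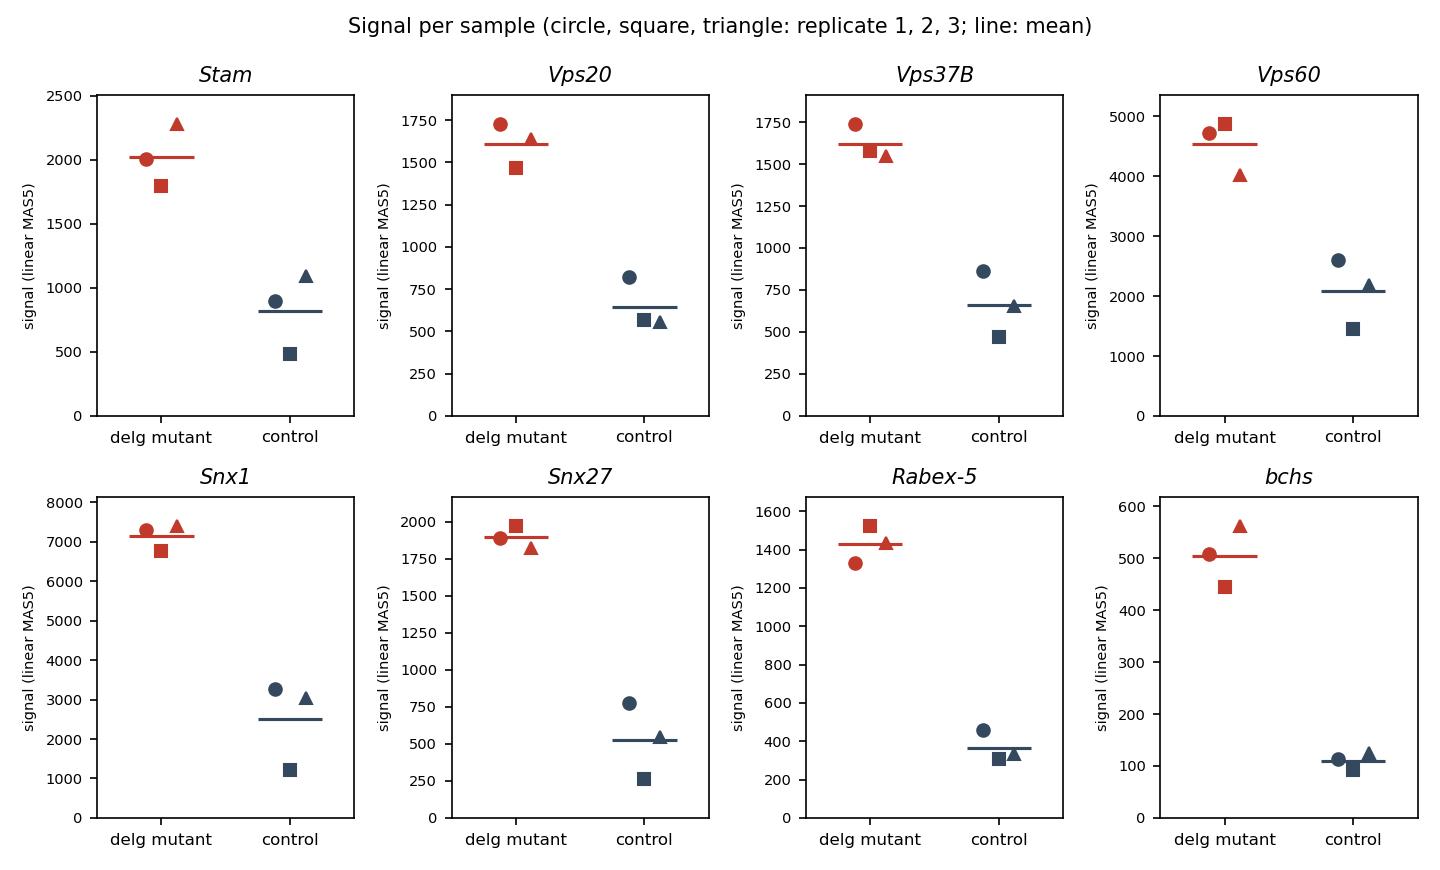
Linear MAS5 signal per sample of 8 genes of the wider list that rose, in the delg mutant and the control, where each point is 1 sample (circle, square and triangle for replicates 1, 2 and 3) and the line is the mean of 3. Each gene has all 3 mutant samples above all 3 control samples, and control replicate 2 is the lowest control in 7 of the 8, with Vps20 the exception.

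In place of the syntaxins, 13 other SNARE genes could be read, of which 1 rose and 1 fell. Syb, the synaptobrevin found outside neurons as well, read 6232, 5947 and 6585 in the mutant samples and 4026, 2357 and 3605 in the control samples (log2 fold change of 0.94 with an SE of 0.23, adjusted p = 0.0462). Membrin, a SNARE of the Golgi apparatus, read 791, 669.9 and 668 in the mutant samples and 1036, 1352 and 1454 in the control samples (log2 fold change of -0.84 with an SE of 0.20, adjusted p = 0.0485). Neither gene's groups overlapped, and both calls needed every mutant sample and control replicate 3, that of Membrin control replicate 2 too. Of 10 SNARE regulators 1 fell and none rose. This was cpx, the complexin that holds assembled SNAREs before fusion at synapses, which read 106, 113 and 184 in the mutant samples and 308, 1059.5 and 513 in the control samples (log2 fold change of -2.09 with an SE of 0.46, adjusted p = 0.0346). All mutant samples were below all controls, with control replicate 2 the highest, and the call needed every mutant sample and control replicate 3.

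No gene passed in the other lists. Their smallest p-values belonged to AP-2alpha among 21 clathrin adaptors and coat partners (log2 fold change 0.99, adjusted p = 0.0703) and to siz among 6 Arf proteins and their exchange factors (log2 fold change 1.56, adjusted p = 0.0523). In the tether lists they belonged to Vps11 of 7 HOPS and CORVET genes (log2 fold change 0.69, adjusted p = 0.139), Exo84 of 7 exocyst genes (log2 fold change 0.63, adjusted p = 0.125) and p115 of 9 GARP and Golgi genes (log2 fold change -0.65, adjusted p = 0.111). Among 6 phosphoinositide enzymes it was the phosphatase gene mtm (log2 fold change 0.49, adjusted p = 0.285). AP-2alpha read 1588, 2139 and 1670.1 in the mutant samples and 1296, 676 and 830.4 in the control samples, and siz read 2639.7, 2113 and 2447 in the mutant samples and 1526, 460.2 and 752 in the control samples. In both the mutant samples were above the controls and control replicate 2 was the lowest. In the list of receptors of lipoproteins and other ligands, 5 genes had no probe set annotated to them alone. All 5 that could be read had negative log2 fold changes, with a median of -0.57. The smallest p among them was that of the lipophorin receptor LpR1, which had 212 to 289 in the mutant and 231 to 692 in the control, with overlap (log2 fold change -0.57, adjusted p = 0.516).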

How the data were processed

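RNA of pooled larval fat bodies was isolated with a spin column kit, amplified by 2 rounds of cDNA synthesis, labelled with biotin and hybridised by the authors to Affymetrix arrays of the Drosophila genome. The deposited intensity values are linear MAS5 signals from GCOS 1.4, according to the submitters' processing notes, and a mean with 2% trimmed at each end is 500 on every array, as checked on the files. The values used carry no detection call. The log2 fold changes of low signals are the least precise, and the number of arrays limits the precision. The study's evaluation used GeneSpring GX, with settings not given in the sources used here.

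Signals were taken to log2 with no constant and no filter, 183 control probe sets were left out, and 18769 were tested. Symbols of the array annotation were brought up to date with a RefSeq table (Release 6 plus ISO1 MT) by their Entrez numbers. A single symbol belonged to 13647 probe sets (13544 of them matched by number), several to 402 and none to 4720. Each gene was read from its brightest probe set by mean log2 signal, which left 11982 genes. For the comparison of mutant and control, 3 samples each, lmFit and eBayes (with trend) of limma 3.58.1 were run in R 4.3.3. Adjustment by Benjamini-Hochberg covered all probe sets tested, and the threshold was 0.05. The samples are separate biological samples, and an exact permutation test of 3 against 3 cannot go below p = 0.1.

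The genes and lists were chosen with earlier results of these data known. Named with values are genes past the threshold (up to 4 a list, or the smallest p), the written list, the 8 largest fold changes and the 5 brightest probe sets, and other genes by range. The alternatives were centring, quantile normalization, adding 100, the brighter probe sets, the average over a gene's probe sets, a replicate block, limma without trend, array weights, the methods' t-test and leaving out each sample. The fit was tested on simulated data.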

Additional observations from a re-analysis of the deposited data

How the results depend on the processing

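Of the 34 genes, 1 fell and 1 rose with all samples as deposited. With 100 added before the log and among the brighter probe sets 2 fell, with array weights 3 rose, and without trend and with the methods' t-test after adjustment 0 fell and 0 rose, while that test without adjustment had 3 lower and 3 higher. Over the fits that left out 1 sample, 1 to 2 fell and 0 to 2 rose. Without mutant replicate 3 it was 2 that fell, without any 1 mutant sample or control replicate 3 it was 0 that rose, and without control replicate 1 or 2 it was 2. The median of the 34 genes stayed above zero in all settings run, from 0.04 without control replicate 2 to 0.32 without control replicate 1. Of the wider list, 13 rose and 2 fell. Without trend 2 rose and 0 fell, with the methods' t-test 3 rose and 1 fell after adjustment and 36 were higher and 10 lower without it, with array weights 19 rose and 4 fell, with centring 1 fell, with 100 added 0 fell, and over the fits that left out 1 sample 2 to 16 rose and 0 to 3 fell. The fits without mutant replicates 1, 2 and 3 and control replicate 3 had 3, 4, 2 and 4 that rose and 0 that fell. The deviations of same-numbered samples correlated at -0.041, -0.066 and -0.007 over probe sets, within the range of all 9 pairs (-0.066 to 0.069). These values show no pairing by replicate number, and a shared batch of same-numbered samples was not tested. With the replicate block 8 genes of the wider list rose and 0 fell, and 1 of the 34 fell and 1 rose. Some genes without a call changed sign. With 100 added, Rab23 had a log2 fold change of -0.0094, Rab9Fb of -0.014 and RabX5 of 0.035. With array weights Rab14 had -0.15, Rab9Fb -0.12, RabX4 -0.11 and Rab3-GAP -0.069. With quantile normalization Rab14 had -0.017, Rab3-GAP -0.034 and Rab27 0.098, and with centring Rab27 had 0.10. Over the fits that left out 1 sample, Rab14 ranged over -0.30 to 0.34, Rab30 over -0.41 to 0.0015, Rab27 over -0.26 to 0.16, Rab23 over -0.56 to 1.28, Rab9Fb over -1.04 to 0.997, RabX2 over -0.74 to 0.12, RabX4 over -0.16 to 0.31, RabX5 over -1.45 to 0.46, Rab3-GAP over -0.18 to 0.30 and Rab3GAP1 over -0.11 to 0.49. The cause of these changes was not tested. Over all 538 pairs of a gene and a setting, 491 kept direction and side of the threshold, 8 lost a call, 11 gained one and 28 changed sign. In these counts the methods' t-test without adjustment was read by its unadjusted p, so part of the gained calls rest on that looser threshold.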

Other observations

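Within the control group, control replicate 2 was the lowest of the 3 samples in 20 of the 34 genes and the highest in 6, and over all genes it was the lowest control in 43.5%. The log2 difference of control replicate 2 from the mean of the other controls was -1.41 in Hrs and -1.35 in alphaSnap. It was -1.17 in Rab32, -1.17 in Rab3GAP1 and -1.09 in Rab14. Other Rab genes of endosomes had -0.77 (Rab21), -0.43 (Rab39) and 0.02 (Rab35), and the other Rab3 regulators -0.78 (Rab3-GAP) and 0.16 (Rab3-GEF). The difference was -0.65 in Chc, -0.28 in Clc and -0.51 in shi, the coat and fission genes. In the retromer genes Vps26 and Vps35 it was -0.23 and 0.03. Control replicate 2 was higher by 0.60 in Rab9 and by 0.98 in Rab2, and RabX1 and RabX6 were at 0.06 and 0.0020. Larger differences belonged to dim genes, with 3.30 in Rab3, 2.34 in Rab23, 2.17 in RabX5, 1.52 in Rab9Fb and -1.56 in RabX2. These differences concern 1 sample against the other controls and have no test.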
